A study of Mus musculus with 5 samples.

Results

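Classical class I antigen presentation genes were followed across 5 bulk RNA-seq libraries of sorted mouse mammary luminal cells. They are 10 of the 24319 genes with a usable name in the deposited table, taken by symbol as *H2-K1*, *H2-D1*, *B2m*, *Tap1*, *Tap2*, *Tapbp*, *Psmb8*, *Psmb9*, *Psmb10* and *Nlrc5*. All 10 passed the filter of a mean of at least 1 FPKM (fragments counted on a gene, scaled to its transcript length and to the mapped fragments of the library), and each had a value above 0 in every library.

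The labels name 3 libraries wild type (replicates 1, 2 and 3) and 2 libraries *Brca1* knockout (replicates 4 and 5), all of mixed strain. The study describes young adult females, virgin or in mid pregnancy, of mixed 129/Sv and C57BL/6 descent, with floxed *Brca1* (*Brca1* fl/fl) removed by *MMTV-Cre*, a Cre driver of the mammary epithelium, and live CD24-high, CD29-low luminal cells sorted from lineage-depleted preparations. Neither the pregnancy stage nor the mouse behind each bulk library is given, and no gate on Cre-active cells is stated for the bulk sort. The study speaks of its luminal cells as BRCA1-deficient, so the groups below are called by their labels. *Brca1* itself was 1.30, 1.32 and 0.234 FPKM in the wild type libraries and 1.2 and 1.34 FPKM in the knockout libraries. The libraries labelled knockout were thus close to wild type replicates 1 and 2 and above replicate 3, so the level does not bear the labels out, although a value for the whole gene does not show the loss of part of it.

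Class I molecules display peptides from the cell's own proteins to CD8 T cells. Proteins are cut by the proteasome, peptides are pumped into the endoplasmic reticulum by the TAP transporter, loaded with the help of tapasin onto a heavy chain paired with beta-2-microglobulin, and carried to the surface. NLRC5 is the transactivator of the class I promoters, and interferons raise most steps of the pathway, including the catalytic subunits that turn the standard proteasome into the immunoproteasome. Nearly every nucleated cell makes class I, epithelium included.

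The class I heavy chain and *B2m* promoters carry a well-known block of elements: an interferon element, a kappa B site, a cyclic AMP response element and a CCAAT box. The 250 bases before the RefSeq start (GRCm38.p6, the assembly also called mm10) are shown for the heavy chain gene whose values differed most between the labels and for *B2m*, the member with the highest level. Both run 5′ to 3′ on the gene's strand, *H2-K1* at chr17:34000348-34000597, minus strand, and *B2m* at chr2:122147437-122147686, plus strand. Capitals mark matches, on either strand, to GAAA, any 2 bases, GAAA or the shorter GAA, any 2 bases, GAAA (interferon elements), to GGGA, any base, T, any 2 bases, CC (kappa B), to TGACG (cyclic AMP response element core) and to CCAAT.
H2-K1: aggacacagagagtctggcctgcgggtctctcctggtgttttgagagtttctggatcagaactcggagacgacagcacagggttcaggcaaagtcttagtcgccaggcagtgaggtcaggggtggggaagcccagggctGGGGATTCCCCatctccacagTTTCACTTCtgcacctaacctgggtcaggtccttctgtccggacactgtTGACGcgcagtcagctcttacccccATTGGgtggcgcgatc
B2m: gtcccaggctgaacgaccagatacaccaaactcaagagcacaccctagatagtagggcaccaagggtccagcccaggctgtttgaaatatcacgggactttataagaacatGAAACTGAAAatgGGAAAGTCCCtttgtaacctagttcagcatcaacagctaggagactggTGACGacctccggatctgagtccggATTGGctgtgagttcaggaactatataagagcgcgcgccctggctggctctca
The heavy chains share the kappa B and interferon elements in the same spacing, as 30 bases of each show, *H2-K1* at chr17:34000429-34000458, minus strand, and *H2-D1* at chr17:35262923-35262952, plus strand. These windows were identical at 29 of 30 positions. In *H2-D1* the window lies inside the untranslated part of other GENCODE transcripts of the gene.
H2-K1: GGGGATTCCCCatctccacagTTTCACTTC
H2-D1: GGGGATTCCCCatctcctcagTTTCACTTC

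RefSeq promoters were at hand for 8 of the 10 members, all but *Tap2* and *Nlrc5*. Each member was counted by 1 promoter, the first listed, whereas the percentages cover all promoters, of which 1 gene can have several. In the 250 bases before the start, GAAA, any 2 bases, GAAA was found in 1 of the 8 (*B2m*) against 2.98% of all 32851 promoters. The shorter form, added after the sequences were seen, was found in 2 (*H2-K1* and *H2-D1*) against 6.31%. A match to the longer form need not hold the shorter, and *B2m* had 0 matches to the shorter. The kappa B letters were found in 3 members (*H2-K1*, *H2-D1* and *B2m*) against 3.44% of all promoters. TGACG was found in 5 members against 17.8%, CCAAT in 6 against 33.8%, and the gamma-activated site (TTC, any 3 bases, GAA) in 1 (*Psmb8*) against 7.02%. *Tap1* and *Psmb9* start 225 bases apart on opposite strands, so their windows are largely the same DNA and their TGACG and CCAAT matches are the same letters counted for both genes. The reference is C57BL/6, whereas the mice were of mixed strain, and a match is a string of letters and not a measured site.

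**Figure D1:**
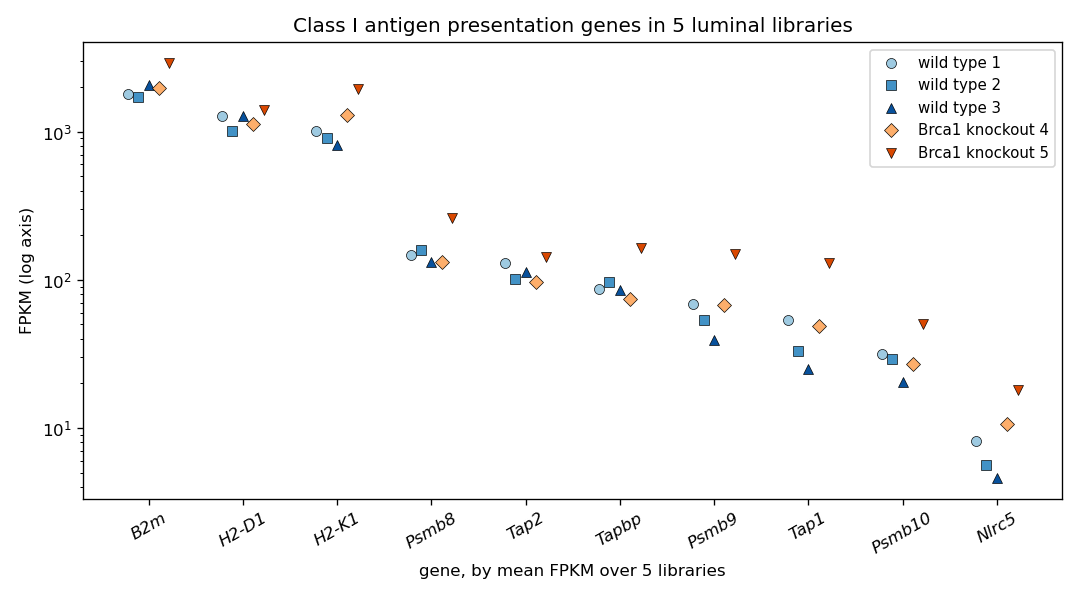
FPKM of the 10 class I genes (log axis) in each of the 5 libraries, 1 point per library, genes ordered by mean FPKM. Replicate 5, labelled *Brca1* knockout, is the highest point for all 10 genes, from *B2m* at 2894 FPKM to *Nlrc5* at 18.0 FPKM.

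The light and heavy chains were among the most abundant transcripts in all 5 libraries, and the other members were lower. *B2m* had a mean of 2082 ± 476 FPKM (SD, n = 5) and stood at rank 36 of 24319 genes, and *H2-D1* and *H2-K1* at ranks 88 and 90. *Psmb8*, *Tap2*, *Tapbp*, *Psmb9*, *Tap1* and *Psmb10* followed at ranks 386 to 2011, and *Nlrc5* was lowest at 9.41 ± 5.37 FPKM, rank 5630. *H2-D1* was above *H2-K1* in 3 of 5 libraries, and *Tap2* above *Tapbp* in 4 of 5, so neither pair had a fixed order. Every other neighbouring pair of the order kept it in 5 of 5 libraries, although *Tapbp* and *Psmb9* differed by 0.51 ± 0.44 on the log2 scale (mean ± SD, n = 5). These ranks rest on many reads. Library depths were read from the steps between low FPKM values, at about 6290000 to 30200000 fragments per library. Counted on its longest annotated transcript, each member then had from about 230 to about 81000 fragments. A gene read mainly from shorter transcripts would have fewer.

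Luminal markers were high in every library, and markers of other cells differed between them. *Krt8* and *Krt18*, the luminal keratins, were at 2240 to 3650 FPKM and 1490 to 2870 FPKM. The summed level of 12 leukocyte markers was 5.82, 330 and 65.8 FPKM in wild type replicates 1, 2 and 3 and 2.45 and 8.17 FPKM in knockout replicates 4 and 5, and 6 fibroblast markers summed to 3.0, 109 and 86.0 against 3.86 and 12.6 FPKM. Basal markers, of the cells that the CD29-low gate is meant to leave out, summed to 74.9, 140 and 13.7 FPKM against 44.5 and 66.7 FPKM, with the keratin *Krt14* at 104 FPKM in wild type replicate 2 and 3.65 FPKM in wild type replicate 3. Endothelial markers summed to at most 7.20 FPKM and adipocyte markers to at most 0.0903 FPKM. Hormone-sensing luminal markers also set wild type replicate 3 apart, with a median of 5.85 on the log2(FPKM + 1) scale against 0.90 to 2.0 in the others. Alveolar markers, of milk-making luminal cells, summed to 33100, 37700 and 13100 FPKM against 28300 and 32400 FPKM, most of it *Csn2*. *Thrsp* was 465, 358 and 12.4 FPKM against 335 and 326, while *Lalba* went the other way, at 130, 172 and 599 FPKM against 153 and 185. The part of pregnancy stage in these values was not tested. In bulk libraries, more cells of a type and more RNA per cell cannot be told apart.

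*H2-K1* (ENSMUSG00000061232, chromosome 17, 33996017 to 34000347), a classical heavy chain, was 1002, 908.5 and 811 FPKM in the wild type libraries and 1300 and 1941 FPKM in the knockout libraries. Both knockout values lay above all wild type values. The difference was 0.81 on the log2(FPKM + 1) scale (SE 0.27), with an unadjusted p of 0.0267 that did not pass after adjustment (limma, Benjamini-Hochberg adjusted p = 0.924). Without replicate 5 the difference was 0.52.

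*H2-D1* (ENSMUSG00000073411, chromosome 17, 35262730 to 35267499), the other heavy chain among the members, was 1273, 1007 and 1278 FPKM against 1125 and 1407 FPKM. Here the groups overlapped, and the highest library was only 1.40 times the lowest. The fitted difference was 0.09 (SE 0.25), and it was -0.04 when the libraries were rescaled by their median ratios.

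The heavy chains therefore differed in proportion to each other. *H2-K1* was 0.787, 0.902 and 0.635 times *H2-D1* in the wild type libraries and 1.16 and 1.38 times in the knockout libraries, with no overlap. This ratio was looked at after the values were seen and carries no test. It is also open to shared reads: the H2 genes are near-identical copies, and the count of a read between them depends on the aligner and on the strain's own alleles. Rows close to them moved unlike each other, with *H2-Q6* at 77.9, 46.6 and 66.8 FPKM against 0.0473 and 32.7, *H2-Q8* at 44.5, 38.3 and 62.5 against 222 and 263, and *H2-L* at 28.5, 129 and 141 against 37.7 and 220. The part of shared reads and of strain alleles in the *H2-K1* and *H2-D1* values was not tested.

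*B2m* (ENSMUSG00000060802, chromosome 2, 122147686 to 122153083), the invariant light chain, has no such close copy. It was 1781, 1704 and 2066 FPKM in the wild type libraries and 1968 and 2894 FPKM in the knockout libraries. Replicate 5 stood above the rest, and replicate 4 lay among the wild type values. Set against the sum of both heavy chains, *B2m* was 0.783, 0.889 and 0.989 in the wild type libraries and 0.811 and 0.864 in the knockout libraries, and the labels overlapped.

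Peptide transport showed a wide gap between the TAP subunits. *Tap1* (ENSMUSG00000037321, chromosome 17, 34187553 to 34197225) was 53.6, 32.9 and 25.02 FPKM in the wild type libraries and 49.1 and 129 FPKM in the knockout libraries. Replicate 5 was 2.41 times the next library, while replicate 4 was below wild type replicate 1. The label difference of 1.15 (SE 0.51) did not pass (limma, Benjamini-Hochberg adjusted p = 0.924), and it was 0.46 without replicate 5 and 1.84 without replicate 4.

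*Tap2* (ENSMUSG00000024339, chromosome 17, 34203527 to 34216321), the partner subunit, was 130, 102 and 113 FPKM against 96.6 and 143 FPKM. The knockout libraries held both the lowest and the highest value, and the label difference was 0.04 (SE 0.25), or -0.10 after median ratio scaling. *Tap1* amounted to 0.413, 0.323 and 0.221 of *Tap2* in the wild type libraries and to 0.508 and 0.904 in the knockout libraries, without overlap. This ratio too was looked at after the values were seen and carries no test.

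*Tapbp* (ENSMUSG00000024308, chromosome 17, 33915899 to 33929292), which encodes the loading chaperone tapasin, was 86.5, 96.5 and 85.4 FPKM in the wild type libraries and 74.6 and 165 FPKM in the knockout libraries. The wild type libraries were close together and the knockout libraries fell on either side of them. The label difference of 0.31 (SE 0.36) was smaller than its error.

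The immunoproteasome subunits were all highest in replicate 5. *Psmb8* (ENSMUSG00000024338, chromosome 17, 34197721 to 34201454) was 146, 160 and 132 FPKM in the wild type libraries and 133 and 260 FPKM in the knockout libraries. *Psmb9* (ENSMUSG00000096727, chromosome 17, 34181987 to 34187764) was 69.0, 53.2 and 39.1 FPKM against 67.4 and 149 FPKM, and *Psmb10* (ENSMUSG00000031897, chromosome 8, 105935735 to 105938444) was 31.8, 29.2 and 20.5 FPKM against 26.9 and 50.4 FPKM. In each case replicate 4 lay within the range of the wild type libraries. The label difference of *Psmb9* was 0.92 (SE 0.42), which did not pass (limma, Benjamini-Hochberg adjusted p = 0.924), and it was 0.36 without replicate 5 and 1.49 without replicate 4.

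Each of these subunits takes the place of a standard one, and the ratio of the pair was formed within each library. *Psmb8* was 1.49, 1.72 and 1.91 times *Psmb5* in the wild type libraries and 1.67 and 2.92 times in the knockout libraries. *Psmb9* was 0.698, 0.522 and 0.476 times *Psmb6* against 0.757 and 1.55 times, and *Psmb10* was 0.232, 0.218 and 0.233 times *Psmb7* against 0.217 and 0.395 times. Replicate 5 was the highest for all 3 ratios, and for *Psmb9* it was the only library in which the induced subunit exceeded its standard counterpart. Of these 3 ratios, only that of *Psmb9* had no overlap between the labels, with a log2 difference of 0.95, which was 0.43 without replicate 5 and 1.46 without replicate 4. The exact two-sided permutation p was 0.2, the smallest that 3 against 2 libraries allow, and 0.6 after adjustment over the 3 ratios. The exact permutation p of the *Psmb8* and *Psmb10* ratios was 0.6 and 0.8, and without replicate 5 their log2 differences were -0.02 and -0.07.

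**Figure D2:**
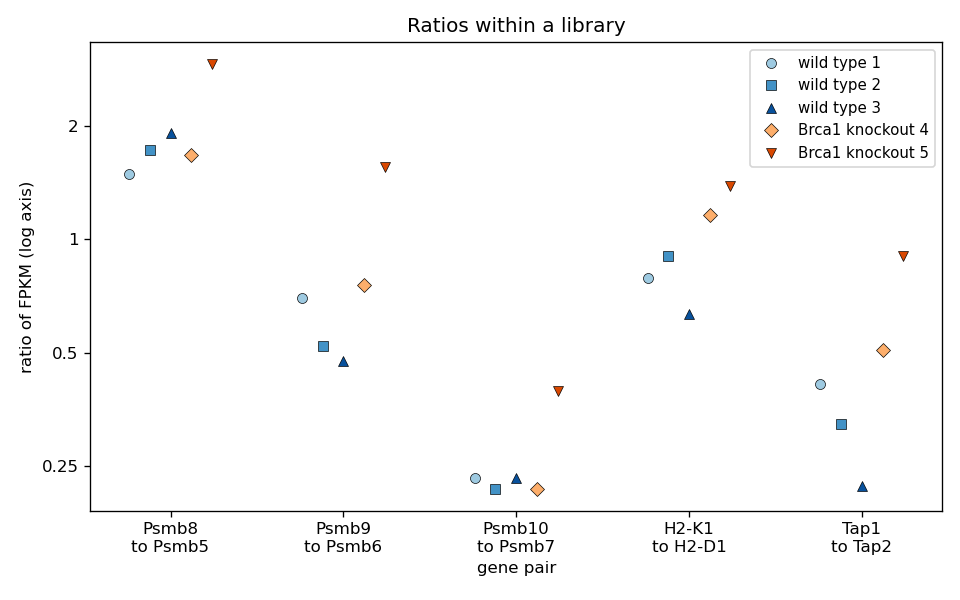
Ratio of FPKM (log axis) for the 3 immunoproteasome subunits over the standard subunits they replace, for *H2-K1* over *H2-D1* and for *Tap1* over *Tap2*, 1 point per library. Replicate 5 is highest in every ratio, and replicate 4 lies among the wild type libraries for *Psmb8* and just below them for *Psmb10*.

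*Nlrc5* (ENSMUSG00000074151, chromosome 8, 94434356 to 94527272), the class I transactivator, was 8.12, 5.59 and 4.59 FPKM in the wild type libraries and 10.7 and 18.0 FPKM in the knockout libraries. As with *H2-K1*, both knockout values lay above all wild type values. The difference was 1.10 (SE 0.32), with an unadjusted p of 0.0167 (limma, Benjamini-Hochberg adjusted p = 0.924).

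Over the 10 genes, the comparison of the labels gave no call. None passed an adjusted p of 0.05 in limma, and of the 11481 genes tested 0.0% passed it. At an unadjusted p under 0.05, *H2-K1* and *Nlrc5* were the only 2 of the 10 (3.24% of genes tested, and 2.33% counting higher values alone). That count was 0 without replicate 2 (228 of the 11481 genes tested), 1 without replicate 3 (842 of 11481) and 2 without replicate 1 (868 of 11481). With no filter on low values it was 1 (710 of 19352 genes). All 10 differences were positive, against 65.5% of genes tested, and *H2-D1* and *Tap2* turned negative under median ratio scaling. The median difference was 0.41 against 0.11 over all genes tested, and 0.28 against -0.01 under that scaling. Both knockout libraries were above all wild type libraries for 2 of the 10 (17.5% of genes tested), and below them for 0 (5.77%).

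That median depended on single libraries. Without replicate 5 it was 0.05 and the differences of *H2-D1*, *Tap2*, *Tapbp* and *Psmb8* were negative. Without replicate 4 it was 0.88, where replicate 5 alone stood for its label. With only replicates 1, 4 and 5, the libraries low in leukocyte and fibroblast markers, it was 0.39. The labels do not say that the libraries came from separate mice, so these p-values measure the spread between libraries, which may be technical.

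**Figure D3:**
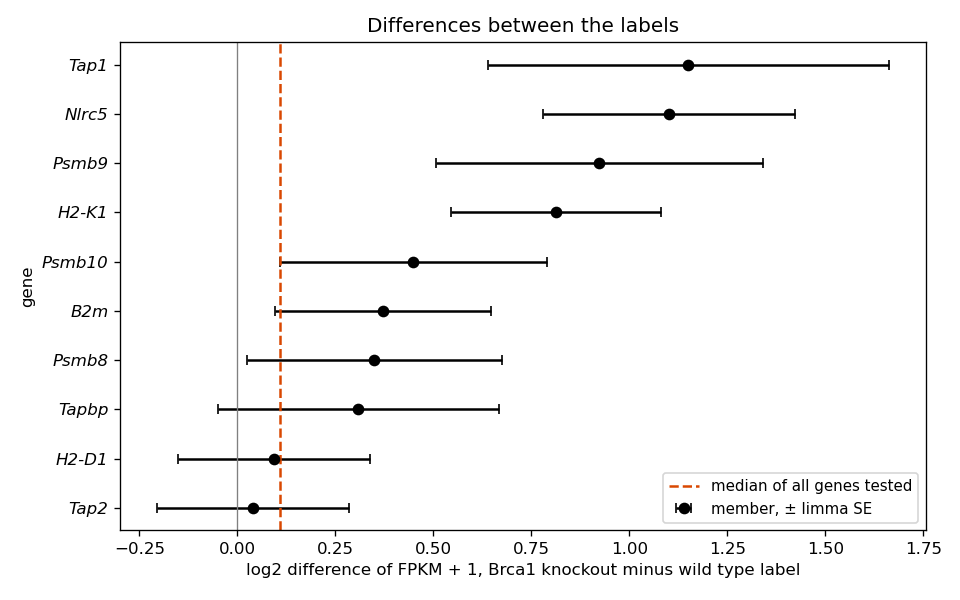
Log2 difference of FPKM + 1 between the labels (*Brca1* knockout minus wild type), points with the standard error from limma, for the 10 class I genes. *Tap1*, *Nlrc5*, *Psmb9* and *H2-K1* lie between 0.81 and 1.15, and *Tap2* and *H2-D1* lie below the dashed line, the median of all genes tested at 0.11.

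Replicate 5 stood at the upper end of the spread of the class I genes. It held the highest value for 10 of 10 (21.2% of genes tested), or 9 of 10 after median ratio scaling. The lowest value was in wild type replicate 3 for 6 of 10, which is near the 51.9% of genes tested, in wild type replicate 2 for 2 and in knockout replicate 4 for 2. Replicates 4 and 5 share a label, yet the median over the members of their gene-centred log2(FPKM + 1) was -0.08 in replicate 4 and 0.73 in replicate 5. The wild type libraries were at -0.01, -0.26 and -0.38. The order of replicate 4 depended on the measure. The median of the uncentred levels, set by the middle genes, was 6.42 in replicate 4, below the wild type libraries at 6.74, 6.65 and 6.63, while the summed FPKM of the members was 4850 there, above the wild type libraries at 4580, 4100 and 4570. Replicate 5 was highest by each, at 7.30 for the uncentred median and 7160 FPKM for the sum.

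The members did not share that excess evenly. Replicate 5 was above the next highest library by 1.26 for *Tap1* and 1.10 for *Psmb9* on the log2 scale, and by 0.14 for both *H2-D1* and *Tap2*. Between the extremes, *Tap1* ranged 5.17-fold, *Nlrc5* 3.92-fold and *Psmb9* 3.81-fold, wider than 88.5% to 92.9% of genes tested by log2 range. *Tap2* ranged 1.48-fold and *H2-D1* 1.40-fold, at the percentiles 31.4 and 23.1. *Tap1* and *Psmb9* kept a ratio of 0.619 to 0.867 over the 5 libraries while each changed several-fold. *Nlrc5*, on chromosome 8, also changed several-fold, and its ratio to them was not formed. The part of the promoter that *Tap1* and *Psmb9* share was not tested.

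Interferon-inducible genes were highest in replicate 5 and next highest in wild type replicate 1. Their median on the log2(FPKM + 1) scale was 3.23, 1.99 and 2.39 in the wild type libraries and 2.15 and 3.91 in the knockout libraries. Of 30 such genes, 24 were highest in replicate 5 (21.2% of genes tested). Among them were *Bst2* (tetherin), with 202, 108 and 69.8 FPKM against 93.9 and 238, and *Ifi47*, an interferon-induced GTPase, with 42.4, 33.1 and 10 FPKM against 28.5 and 111. At the low end, *Gbp5*, a guanylate-binding protein, was 0.226, 1.17 and 1.09 FPKM against 0.531 and 2.77. *Mx1*, an antiviral GTPase, was 3.99, 0.604 and 0.277 FPKM against 0.258 and 1.92, highest in wild type replicate 1. *Ifit1*, *Ifit3*, *Isg15* and *Rsad2*, named after their values were seen, were also highest in wild type replicate 1, in which no class I gene was highest. Between the labels 24 of the 30 had a positive difference (65.5% of genes tested) and 6 a negative one, with a median of 0.52. In limma 0 passed after adjustment over all genes, and 1 had an unadjusted p under 0.05 (3.24% of genes tested). *Ifng*, the gene for interferon gamma, was at most 0.0910 FPKM in any library.

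Leukocyte markers were not high in replicate 5. Their summed level in replicate 5 was 8.17 FPKM, with 2 of the 12 at 0, and *Ptprc*, the pan-leukocyte gene CD45, was 0.0603, 4.93 and 2.69 FPKM in the wild type libraries and 0.119 and 0.183 FPKM in the knockout libraries. In wild type replicate 2 the leukocyte markers summed to 330 FPKM, of which *Lyz2* alone was 213 FPKM. Class II genes followed neither pattern alone. The 5 class II markers summed to 39.8, 1490 and 375 FPKM in the wild type libraries and 50.7 and 710 FPKM in the knockout libraries. *Cd74*, the class II invariant chain, was 22.7, 696 and 205 FPKM against 25.9 and 465, and *Ciita*, the class II counterpart of *Nlrc5*, was 0.242, 0.977 and 0.409 FPKM against 0.299 and 2.12. What part any other cell type has in the class I values was not tested.

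**Figure D4:**
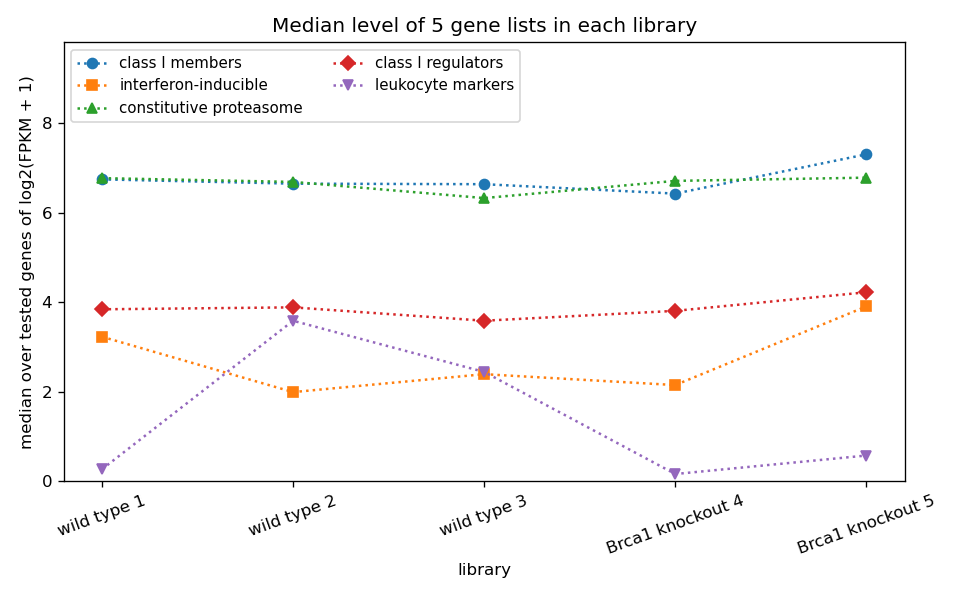
Median over the tested genes of 5 lists of log2(FPKM + 1) in each library; dotted lines join the points of a list and imply no order. Class I members and interferon-inducible genes are highest in replicate 5 (7.30 and 3.91), constitutive proteasome genes are at 6.32 to 6.78, and leukocyte markers are highest in wild type replicate 2 (3.59).

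Some regulators of class I were also highest in replicate 5. Of 26, 25 were tested, and 10 of these were highest there (21.2% of genes tested). Between the labels 16 had a positive difference, near the 65.5% of genes tested, and 9 a negative one, with a median of 0.09, and 0 passed the limma test, adjusted or not. *Rela*, an NF-kappa B subunit and the most abundant, was 61.3, 63.1 and 68.9 FPKM against 59.7 and 72.7. *Ifngr1*, a chain of the interferon gamma receptor, was 46.6, 60.3 and 31.1 FPKM against 43.9 and 40.5. *Rfxank*, a subunit of the RFX complex that binds these promoters, was 2.77, 1.83 and 1.23 FPKM against 2.47 and 1.99. The interferon regulatory factor *Irf1* and the signalling inhibitor *Socs1* were singled out after their values were seen. *Irf1* was 43.0, 33.4 and 26.9 FPKM against 31.1 and 77.1, and *Socs1* was 2.87, 3.04 and 2.59 FPKM against 2.82 and 7.02. In both, replicate 5 was highest and replicate 4 lay within the range of the wild type libraries.

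The standard proteasome did not share the excess. Of 15 genes for constitutive subunits and the assembly factor *Pomp*, 2 were highest in replicate 5 (21.2% of genes tested). Of the label differences, 10 were positive (65.5% of genes tested) and 5 negative, with a median of 0.05. In limma 0 passed, adjusted or not. *Psmb4* was 170, 139 and 113 FPKM in the wild type libraries and 130 and 157 FPKM in the knockout libraries, and *Psma7* 155, 157 and 93.7 FPKM against 138 and 138. The lowest levels were those of *Psma4*, at 67.4, 65.6 and 41.3 FPKM against 61.9 and 56.2, and *Psma1*, at 63.9, 65.4 and 46.0 FPKM against 68.7 and 73.8. All of these genes but *Psma5*, named after its values were seen, were lowest in wild type replicate 3, against 51.9% of genes tested.

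The remaining 16 class I pathway genes were mixed, with 9 positive (65.5% of genes tested) and 7 negative differences and a median of 0.09. None, 0 of 16, passed the adjusted threshold in limma, and 3 had an unadjusted p under 0.05 (3.24% of genes tested). *Calr* (calreticulin, the chaperone that holds the loading complex) was 379, 395 and 388 FPKM in the wild type libraries and 257 and 269 FPKM in the knockout libraries, and *Hsp90b1* (the chaperone GRP94) was 226, 229 and 228 FPKM against 155 and 152. Both knockout libraries were thus below all wild type libraries, as they also were for *Canx*, *Pdia3* and *Sec61a1*, which makes 5 of 16 (5.77% of genes tested), while for 2 of 16 both were above (17.5%). The difference of *Calr* was -0.56 (SE 0.18) and that of *Hsp90b1* -0.57 (SE 0.17), neither past the threshold (limma, Benjamini-Hochberg adjusted p = 0.924 for both). Of the least abundant, *Tapbpl*, a tapasin relative, was 7.83, 7.30 and 7.31 FPKM against 7.09 and 14.4, and *Lnpep*, a peptide-trimming enzyme, was 2.2, 4.95 and 6.52 FPKM against 2.62 and 4.09. The trimming enzyme *Erap1*, named after its values were seen, was 16.7, 18.0 and 10.9 FPKM against 18.5 and 26.4.

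Among 16 non-classical class I and class I-like genes, 8 differences were positive (65.5% of genes tested) and 8 negative, and the median was 0.09. In limma 0 passed after adjustment, and 4 had an unadjusted p under 0.05 (3.24% of genes tested). Replicate 5 was highest for 9 of the 16 (21.2% of genes tested). *H2-T23*, which encodes Qa-1, was 111, 79.4 and 91.4 FPKM in the wild type libraries and 156 and 237 FPKM in the knockout libraries. Both knockout values lay above the wild type values, as for *H2-K1*. *H2-Q4*, the most abundant, was 356, 332 and 453 FPKM against 351 and 539, with the groups overlapping. *H2-M2* was 2.96, 2.41 and 1.71 FPKM against 1.62 and 2.52, and *Hfe*, an iron regulator of the class I fold, was 2.27, 3.34 and 2.01 FPKM against 2.05 and 2.48. Both knockout libraries were above all wild type libraries for 4 of the 16 (17.5% of genes tested) and below for 2 (5.77%). The reservation on shared reads holds for the H2-T and H2-Q rows as well.

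The genes whose profile over the 5 libraries was nearest to the median profile of the members were *Nfkbib*, *Ikzf1*, *Phactr1*, *Nhsl1* and *Pla2g16*. Their mean absolute difference from it was 0.05 to 0.09 on the centred log2 scale, against a median of 0.34 over all genes tested. *Nfkbib*, an inhibitor of NF-kappa B, was 23.7, 21.7 and 17.8 FPKM in the wild type libraries and 22.2 and 40.1 FPKM in the knockout libraries, and *Ikzf1*, a lymphoid transcription factor, was 3.87, 3.18 and 2.56 FPKM against 3.58 and 6.40. With 5 libraries, 1 of which sets the profile, this is a description.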

How the data were processed

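RNA of sorted luminal cells was made into libraries with a NEBNext Ultra kit, which does not mark strand. The labels' extraction text speaks of flash-frozen tumors, although the samples are named luminal cells. The authors aligned reads to mm10 and deposited FPKM values from Cufflinks 2.2.1; the labels also list Trimmomatic 0.35 and TopHat2 2.0.13, while the methods name another TopHat release. The gene annotation is not given in the sources used here. Of 24346 rows, 27 had names turned into dates and were left out.

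Values were placed on the log2(FPKM + 1) scale, on which low genes show smaller changes than they underwent. Labels were compared with limma 3.58.1 (trend, R 4.3.3) over the 11481 genes whose mean reached 1 FPKM, with Benjamini-Hochberg adjustment over all of them. On simulated data for this comparison, with 11481 genes of which 200 changed, 99% of changes of 1 and 100% of changes of 2 (log2) were recovered at an SD of 0.2, and 4% and 82.5% at an SD of 0.5. Every simulated gene had the same SD, unlike the real genes, so these shares may overstate what the test recovers here. Ratios were tested by exact permutation (scipy 1.17.1). Gene lists were described by counts and medians. Depth was estimated from 873 genes with 1 transcript, of which 116 to 191 per library had values low enough. Between 51.7% and 58.2% of those lay within 0.15 of a whole multiple of the step, so the depths are approximate, and no count test was run. Gene positions are from GENCODE M21 (GRCm38) and promoters from RefSeq.

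The members and lists were chosen with earlier results of these data known. All 10 members are named; of each other list the 2 highest and 2 lowest by mean FPKM and any gene past the threshold; of markers those that stand beside a result; and the 5 genes nearest to the members' profile. Others are said to be named after their values were seen. *H2-Ke6* was taken off the non-classical list because it encodes no class I molecule. Alternatives were another pseudocount, other filters, other scalings, other variance models and leaving out each library.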

Additional observations from a re-analysis of the deposited data

Results flagged for a closer look

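With the 5 libraries taken as 1 group, 4 of the 31 quantities examined had 1 library set apart by Dixon's gap test (the gap to the nearest library over the whole range, critical value 0.71), where chance sets apart about 5% of groups. *Psmb8* was 8.03 on the log2(FPKM + 1) scale in knockout replicate 5 against 7.05 to 7.33 in the others, with a gap of 0.717 of its range. The log2 ratio of *Psmb10* to *Psmb7* was -1.32 in the same library against -2.16 to -2.05, with a gap of 0.861. The median of the constitutive proteasome genes was 6.32 in wild type replicate 3 against 6.69 to 6.78, with a gap of 0.793. The median of the mature luminal markers was 5.85 in that library against 0.90 to 2.0, with a gap of 0.777.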

How the results depend on the processing

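No class I gene passed the adjusted threshold in limma under any alternative run, and 0 to 18 of all genes did when a library was left out (3 with replicates 1, 4 and 5 only, an alternative chosen after seeing the data). The median class I difference was 0.278 under median-of-ratios scaling and 0.051 to 0.884 with a library left out. The number of class I genes with every remaining knockout library above every remaining wild type library was 2 to 10 with a library left out. It was 4 without replicate 1. It was 10 without replicate 4, which was fixed by replicate 5 being highest for all 10. The number wholly below was 0 to 2, with 2 without replicate 5. The shares over all genes were not formed for these settings, so these counts show nothing particular to the class I genes. *H2-D1* and *Tap2* changed sign to -0.041 and -0.095 under median-of-ratios scaling and to -0.017 and -0.142 with replicates 1, 4 and 5 only. With a library left out, *H2-D1* was -0.067 to 0.255 and *Tap2* -0.242 to 0.319, both negative without replicate 2 (-0.02 and -0.044) or without replicate 5. *Tapbp* was -0.257 to 0.876 and *Psmb8* -0.134 to 0.833, negative without replicate 5. Likewise *H2-K1* was 0.524 to 1.101, *B2m* 0.094 to 0.65, *Tap1* 0.462 to 1.84, *Psmb9* 0.357 to 1.491, *Psmb10* 0.008 to 0.891 and *Nlrc5* 0.751 to 1.452, each lowest without replicate 5 and highest without replicate 4. The log2 difference of the *Psmb9* to *Psmb6* ratio was 0.434 to 1.456. Of 130 alternatives for single class I genes, 120 kept their direction and 10 reversed. Changes of filter or variance model cannot alter a gene's difference, so their share of the 120 was fixed in advance. The reversals came with median-of-ratios scaling or other sets of libraries. The cause was not tested. Leaving out a knockout library leaves 1, which the fit assumes to vary like the others. The *H2-K1* to *H2-D1* log2 difference between labels stayed at 0.58 to 0.85 with a library left out. No paired analysis was possible because the 2 labels share no replicate numbers. Depth was lowest for *Psmb10* in knockout replicate 4, at about 230 fragments.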
